A study of Mus musculus with 10 samples.

Results

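The secretory products and metabolic enzymes of airway club cells were followed as a group of 9 genes in mouse lung tumours that were started from CC10-positive cells. The 9 genes, Scgb1a1, Scgb3a1, Scgb3a2, Cyp2f2, Cbr2, Bpifa1, Bpifb1, Muc5b and Reg3g, were chosen by name, and each matched 1 row by symbol among the 39017 genes of the count table. RNA sequencing of polyadenylated RNA compared 5 KP control libraries with 5 KPG1 libraries labelled Glut1-KO, to see how tumours without the glucose transporter Glut1 differ in expression. All mice were of C57BL/6 background and carried the alleles K-rasLSL-G12D/WT and p53Fl/Fl. KPG1 mice were in addition homozygous for Glut1Fl/Fl (labelled homozygous fl/fl), whereas the controls were labelled heterozygous fl/wt, although the design text speaks of Glut1-WT tumours and the study's methods allow controls of both kinds. Both groups received the adenovirus Ad5CC10-Cre into the trachea, and tumours were dissected 20 weeks and 1 day later, dissociated and depleted of CD45-positive immune cells with magnetic beads.

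Club cells are the dome-shaped secretory cells of the bronchioles. They release secretoglobins, small anti-inflammatory proteins of the airway lining fluid, and they hold cytochrome P450 and carbonyl-reducing enzymes that act on inhaled chemicals. CC10 is the product of Scgb1a1, so the Cre recombinase of this model was driven by the promoter of one of the 9 genes, and recombination was limited to cells in which that promoter was active when the virus arrived. Depletion with anti-CD45 beads is aimed at leukocytes, so airway epithelium outside the tumours could remain in the fraction. In bulk RNA, fewer cells of a type and less RNA per cell cannot be told apart.

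Each library held between 35.3 and 49.8 M counts, M standing for mega. Slc2a1, the gene of Glut1, lay between 73.2 and 118 CPM (counts per M after TMM scaling of the library sizes) in the controls. Among the libraries labelled Glut1-KO it lay between 34.6 and 60.3 CPM in the 3 female ones and at 92.4 and 103 CPM in the 2 male ones, so replicates 4 and 5 were inside the control range. The difference did not pass the test (log2 fold change -0.62, SE 0.29, limma adjusted p = 0.658). These transcripts of dissected tissue do not show whether the floxed exons were removed, and each library is therefore called by its label. With 5 male controls, genotype and sex can only in part be separated. A further number in the library names, possibly the animal but explained by no label, took 2 values among controls and 4 among libraries labelled Glut1-KO, none shared between groups, so that it and the group cannot be told apart.

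The 9 genes differed widely between libraries of the same group, and none passed the test between groups. Adjusted p (limma-voom, Benjamini-Hochberg over 15922 genes) ranged from 0.707 for Scgb3a2 to 0.972 for Bpifb1, and 0 of 9 passed the threshold of 0.05, as did 0 of all genes tested (0%). At an unadjusted limma p under 0.05 stood 0 of the 9 genes and 1223 of all genes (7.68%). With DESeq2, 215 genes passed (1.35%), none of them among the 7 members with an adjusted p, and edgeR called 0 genes. The estimated log2 fold change, Glut1-KO minus control, was below 0 for all 9 genes, with a median of -0.67, where 50.7% of all genes had an estimate below 0 and the median was -0.00. An estimate of -1 or less was found for 3 of the 9 genes (Scgb1a1, Scgb3a2 and Reg3g) and for 3.17% of all genes. Groups overlapped for each of the 9 genes, whereas 1.85% of all genes had groups that did not overlap. Several of the genes varied together between libraries, so the 9 estimates are not 9 independent signs.

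**Figure D1:**
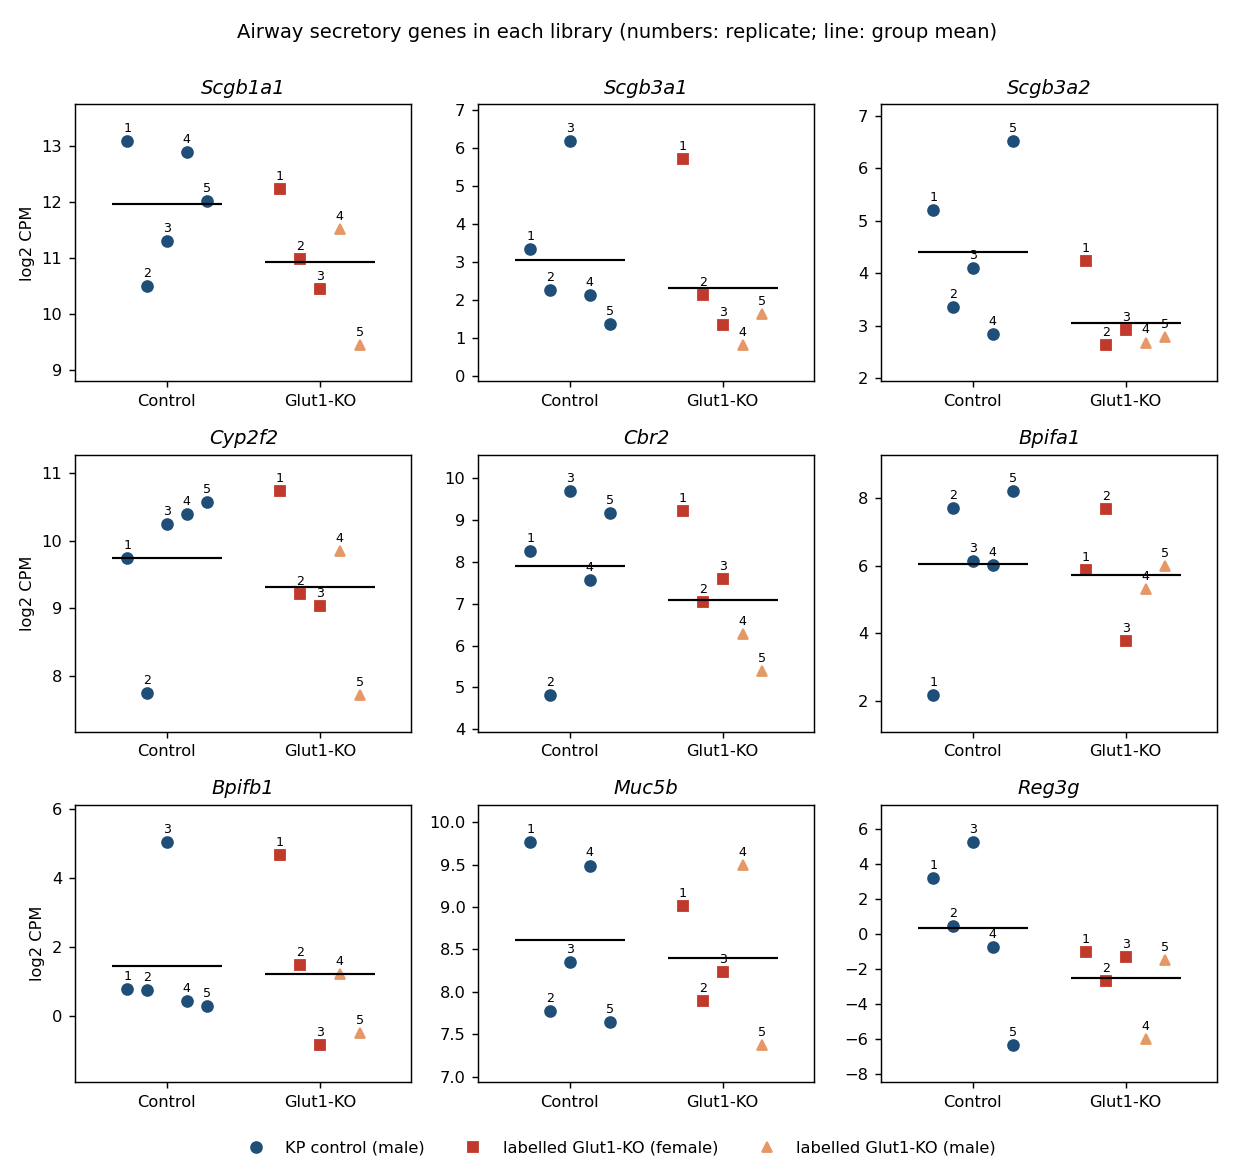
Log2 CPM of the 9 airway secretory genes (y axis, own scale in each panel) in each library, with controls on the left and libraries labelled Glut1-KO on the right. Numbers give the replicate, black lines the group mean of log2 CPM, and colours the labelled sex. The groups overlap in every panel, and control replicate 3 and Glut1-KO replicate 1 stand above all others for Scgb3a1 and Bpifb1. The 2 Reg3g counts of 0 are placed by the offset of 0.5 counts.

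Levels between genes were compared per length, as CPM per kb of exon. Scgb1a1 was first of the 9 in 10 of 10 libraries, from 1478 to 18345 CPM per kb, with a control mean of 10270.5 ± 6629 CPM per kb (SD, n = 5). Cyp2f2 followed at a control mean of 510.1 ± 257 CPM per kb, and Cbr2 at 291 ± 238 CPM per kb. Cyp2f2 was above Cbr2 in 9 of 10 libraries, and Cbr2 above Bpifa1 in 7. A middle group held Bpifa1, Scgb3a2, Scgb3a1 and Muc5b, with control means of 83.5 ± 77.4, 37.1 ± 39.9, 31.6 ± 50.6 and 31.2 ± 20.6 CPM per kb. Bpifa1 was above Scgb3a2 in 9 of 10 libraries and Scgb3a2 above Scgb3a1 in 7, whereas Scgb3a1 was above Muc5b in 2 although its control mean was the higher one. Reg3g at 4.63 ± 7.67 and Bpifb1 at 2.15 ± 3.91 CPM per kb were lowest, and Reg3g was above Bpifb1 in 4 of 10 libraries. In the libraries labelled Glut1-KO the mean of Scgb1a1 was 5005 ± 3347 CPM per kb and that of Muc5b 26.0 ± 15.2 CPM per kb.

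The label of a club cell programme was set beside markers of the other lung cells. Scgb1a1 took between 0.0696% and 0.833% of a library's counts and ranked between 5 and 122 among all genes. Sftpc, the surfactant protein that defines alveolar type 2 (AT2) cells, was per kb above Scgb1a1 in 10 of 10 libraries, by a factor of 1.07 to 6.64 in controls and of 2.5 to 9.75 in libraries labelled Glut1-KO. Transcripts that define club cells and transcripts that define AT2 cells were thus both abundant in the CD45-negative fraction, and which cells held them was not tested. The summed level of 10 AT2 markers ranged from 27581 to 85383 CPM in controls and from 52048 to 72148 CPM in libraries labelled Glut1-KO. A list of 10 club cell markers had 8 estimates below 0 and 2 above (median log2 fold change -0.56), and 0 passed limma's test. It shares Scgb1a1, Scgb3a1, Scgb3a2, Cyp2f2 and Cbr2 with the 9 genes. Its other markers were Gabrp at -1.8, Chad at -0.38, Sec14l3 at -0.07, Aldh1a1 at 0.34 and Cldn10 at 0.65.

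Scgb1a1 (ENSMUSG00000024653, chromosome 19, 9083636 to 9087958, minus strand, GRCm38) encodes CC10, the most abundant secretoglobin of the bronchioles and the basis of the Cre driver. Its levels in control replicates 1 to 5 were 8732, 1457, 2538, 7572 and 4144 CPM. In Glut1-KO replicates 1 to 5 they were 4814, 2034, 1399.6, 2961 and 704 CPM. Controls 1 and 4 were above every library labelled Glut1-KO, while Glut1-KO replicates 3 and 5 were below every control, and the other 6 libraries lay among each other. The control mean was 4889 ± 3156 CPM and the Glut1-KO mean 2382 ± 1593 CPM (SD, n = 5 each), a ratio of 2.05 between means. On the log2 scale the difference was -1.04 (SE 0.58), with a limma adjusted p of 0.718. An exact 2-sided permutation test, which enumerated every split of the libraries into groups of 5, gave p = 0.167.

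Scgb3a1 (ENSMUSG00000064057, chromosome 11, 49663610 to 49665118, plus strand) encodes a secretoglobin of the larger airways. Its levels were 10.1, 4.73, 72.8, 4.32 and 2.56 CPM in control replicates 1 to 5, and 52.9, 4.37, 2.52, 1.75 and 3.06 CPM in Glut1-KO replicates 1 to 5. Control replicate 3 and Glut1-KO replicate 1 thus stood far above the other 8 libraries, which lay at or under 10.1 CPM in both groups. The log2 fold change of -0.67 (SE 1.05, limma adjusted p = 0.896) became 0.08 without control replicate 3 and -1.52 at the lowest when another single library was left out. The promoter is shown because Scgb3a1 moved with Bpifb1, whose promoter follows further on. It is the 250 bases before the RefSeq start, chr11:49663345-49663594 on the plus strand of GRCm38.p6, written 5′ to 3′, with matches to the motifs searched in capitals.
Scgb3a1: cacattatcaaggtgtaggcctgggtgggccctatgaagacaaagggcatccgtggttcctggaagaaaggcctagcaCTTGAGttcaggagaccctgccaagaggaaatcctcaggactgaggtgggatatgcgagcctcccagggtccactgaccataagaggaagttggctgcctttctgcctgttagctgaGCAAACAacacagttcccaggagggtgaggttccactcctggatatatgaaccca
The motifs, searched on both strands, were FOXA (TGTTTAC or TGTTTGC or TATTTAC or TATTTGC), NKX2-1 (CTCAAG), C/EBP (TTGCNNAA) and AP-1 (TGANTCA), named for factors with known roles in lung epithelium. The Scgb3a1 window held 1 FOXA match, 49 to 55 bases before the start, and 1 NKX2-1 match, 167 to 172 bases before it. Among all 32851 promoter windows of that length, 11.9% held a FOXA match, 13.3% an NKX2-1 match, 9.56% a C/EBP match and 6.75% an AP-1 match. A match describes letters and is no binding site.

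Scgb3a2 (ENSMUSG00000038791, chromosome 18, 43764289 to 43767399, plus strand) encodes a secretoglobin of the bronchioles that is expressed early in lung development. Control replicates 1 to 5 held 36.7, 10.3, 17.1, 7.17 and 92.0 CPM, and Glut1-KO replicates 1 to 5 held 18.9, 6.2, 7.5, 6.41 and 6.84 CPM. Controls 1 and 5 were the highest libraries, and 3 of 5 libraries labelled Glut1-KO were below every control. The spread was also wider in controls, with an SD of log2 CPM of 1.48 against 0.67. Between groups the difference was -1.33 on the log2 scale (SE 0.72, limma adjusted p = 0.707). Its exact permutation p of 0.0873 was the smallest of the 9 genes. Leaving out 1 library at a time moved that p between 0.0317, without control replicate 4, and 0.198, without control replicate 5, where the log2 fold change was -0.80.

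Cyp2f2 and Cbr2 are the enzymes of the group. Cyp2f2 (ENSMUSG00000052974, chromosome 7, 27119909 to 27133660, plus strand) is the club cell cytochrome P450 that activates naphthalene. It reached 854, 215, 1219, 1340.2 and 1536 CPM in control replicates 1 to 5, and 1693, 590.2, 528, 925 and 210.3 CPM in Glut1-KO replicates 1 to 5. The highest and the lowest library both carried the Glut1-KO label. On the log2 scale the groups differed by -0.45 (SE 0.61, limma adjusted p = 0.883). An antisense gene, Gm15883, overlaps Cyp2f2, and whether the counting used strand is not given in the sources used here.

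Cbr2 (ENSMUSG00000025150, chromosome 11, 120729489 to 120732114, minus strand) encodes carbonyl reductase 2, a mitochondrial enzyme of the lung. Control replicates 1 to 5 held 306, 28.3, 824, 192 and 577 CPM, a range of 29.1-fold within 1 group. Glut1-KO replicates 1 to 5 held 593, 133, 192, 77.9 and 42.0 CPM, all of them inside the control range. A log2 fold change of -0.82 resulted (SE 0.91, limma adjusted p = 0.851). The promoters of both enzymes are shown because the levels of the genes moved together (r = 0.86). They are chr7:27119705-27119954 on the plus strand for Cyp2f2 and chr11:120732022-120732271 on the minus strand for Cbr2 (RefSeq, GRCm38.p6, 5′ to 3′).
Cyp2f2: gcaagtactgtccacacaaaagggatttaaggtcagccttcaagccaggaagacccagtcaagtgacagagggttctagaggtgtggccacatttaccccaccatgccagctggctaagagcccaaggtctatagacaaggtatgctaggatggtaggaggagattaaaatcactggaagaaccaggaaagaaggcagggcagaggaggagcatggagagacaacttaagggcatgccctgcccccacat
Cbr2: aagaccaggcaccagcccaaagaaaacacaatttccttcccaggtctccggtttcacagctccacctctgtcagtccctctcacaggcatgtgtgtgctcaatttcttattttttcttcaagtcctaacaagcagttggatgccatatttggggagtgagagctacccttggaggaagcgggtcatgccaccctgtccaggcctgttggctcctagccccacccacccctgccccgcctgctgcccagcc
Neither window held a match to any of the 4 motifs, hence neither line has capitals, which says only that these letters are not in these windows. Both windows end at RefSeq starts and run into the gene as GENCODE places it, which starts at 27119909 for Cyp2f2 and, on the minus strand, at 120732114 for Cbr2.

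The remaining 4 genes encode proteins of the airway lining fluid. Bpifa1 (ENSMUSG00000027483, chromosome 2, 154142880 to 154149219, plus strand) and Bpifb1 (ENSMUSG00000027485, chromosome 2, 154190818 to 154220369, plus strand) are genes of 1 cluster, with Bpifa5 between them, for secreted proteins that bind bacterial lipids. Bpifa1 was at 4.48, 210.1, 70.6, 64.9 and 295 CPM in control replicates 1 to 5 and at 58.8, 205, 13.7, 39.8 and 63.7 CPM in Glut1-KO replicates 1 to 5. The lowest library and the highest were both controls, 65.9-fold apart, and all libraries labelled Glut1-KO lay between them. With a log2 fold change of -0.34, the SE was 1.06 (limma adjusted p = 0.958).

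Bpifb1 was at 1.70, 1.67, 33.1, 1.32 and 1.21 CPM in control replicates 1 to 5 and at 25.4, 2.78, 0.539, 2.30 and 0.702 CPM in Glut1-KO replicates 1 to 5. As for Scgb3a1, control replicate 3 and Glut1-KO replicate 1 were high, and the other 8 libraries were at or under 2.78 CPM. The log2 fold change was -0.26 (SE 1.15, limma adjusted p = 0.972) and turned to 0.62 without control replicate 3. The promoters of this pair are shown because the genes lie in 1 cluster and had r = 0.13 with each other. They are chr2:154142630-154142879 for Bpifa1 and chr2:154190568-154190817, the first of 2 RefSeq starts, for Bpifb1 (plus strand, GRCm38.p6, motif matches in capitals).
Bpifa1: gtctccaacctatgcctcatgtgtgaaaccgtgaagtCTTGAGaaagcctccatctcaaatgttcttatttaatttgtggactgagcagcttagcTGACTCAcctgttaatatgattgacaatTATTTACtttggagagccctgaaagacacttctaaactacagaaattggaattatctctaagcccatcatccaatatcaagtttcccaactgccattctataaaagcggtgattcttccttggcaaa
Bpifb1: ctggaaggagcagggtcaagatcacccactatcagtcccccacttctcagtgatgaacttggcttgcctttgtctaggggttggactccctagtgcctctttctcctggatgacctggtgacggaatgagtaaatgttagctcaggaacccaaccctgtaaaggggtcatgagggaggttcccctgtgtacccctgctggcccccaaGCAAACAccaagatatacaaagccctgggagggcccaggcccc
The Bpifa1 window held 1 match each to FOXA, NKX2-1 and AP-1. The Bpifb1 window held 1 FOXA match, 37 to 43 bases before the start, with the same letters as the FOXA match of Scgb3a1. The window of the second Bpifb1 start held 2 FOXA matches, of other letters, that overlap each other. Windows were examined singly for 6 of the 9 genes, which leaves out Scgb1a1, Scgb3a2 and Muc5b. C/EBP had no match in any window of these 6 genes.

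Muc5b (ENSMUSG00000066108, chromosome 7, 141839070 to 141873084, plus strand) encodes the gel-forming mucin of the distal airways and had the smallest spread of the 9 genes over all libraries and within controls, while Scgb3a2 had the smallest within libraries labelled Glut1-KO. Its levels were 871, 219, 326, 719 and 201 CPM in control replicates 1 to 5, and 517, 237, 303, 722 and 166 CPM in Glut1-KO replicates 1 to 5. Only Glut1-KO replicate 5 lay outside the control range, below it, and the highest library was 5.26-fold above the lowest. Between groups Muc5b differed by -0.20 on the log2 scale (SE 0.50, limma adjusted p = 0.94). Counts of Muc5b came to between 4.84% and 24.4% of those of Scgb1a1, with the 3 highest shares, 21.6%, 24.4% and 23.5%, in Glut1-KO replicates 3, 4 and 5.

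Reg3g (ENSMUSG00000030017, chromosome 6, 78466269 to 78468872, minus strand) encodes a secreted lectin that binds Gram-positive bacteria and is induced in airway epithelium by inflammation. Its counts were 353, 73, 1541, 23 and 0 in control replicates 1 to 5, or 8.93, 1.35, 38.1, 0.585 and 0 CPM. In Glut1-KO replicates 1 to 5 they were 19, 6, 17, 0 and 15, or 0.463, 0.143, 0.382, 0 and 0.340 CPM. A count of 0 allows up to 0.0723 CPM in control replicate 5 and 0.092 CPM in Glut1-KO replicate 4 (3 counts, counting error only). Hence 4 of 5 controls were above every library labelled Glut1-KO, and control replicate 5 was at the floor. The log2 fold change was -2.81 (SE 2.16, limma adjusted p = 0.778, exact permutation p = 0.214). DESeq2 gave -5.21 with an adjusted p of 0.0714 and edgeR an adjusted p of 0.387, and over all settings tried the adjusted p ran from 0.0714 to 0.938. The exact permutation p was 0.421 without control replicate 3 and 0.373 without Glut1-KO replicate 4. Without control replicate 5, the control with no Reg3g count, it was 0.00794, but that choice leaves groups that do not overlap and is no independent evidence.

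Sex was taken into account by comparing within subsets. Between male libraries only (5 controls and Glut1-KO replicates 4 and 5) all 9 estimates were below 0, with a median of -1.46, where 51.6% of all genes were below 0. The 2 Glut1-KO libraries share their name number, so they may come from 1 animal. Scgb1a1 then stood at -1.46 (SE 0.77), Cbr2 at -2.10 (SE 1.21) and Scgb3a1 at -1.77 (SE 1.52), and the smallest limma adjusted p was 0.603. Between the controls and the 3 female libraries labelled Glut1-KO, 6 estimates were below 0 and 3 above, with a median of -0.22, where 50.3% of all genes were below 0. Cbr2 was at 0.04 (SE 1.01), Scgb3a1 at 0.03 (SE 1.23) and Bpifb1 at 0.30 (SE 1.38) there, whereas Scgb1a1 at -0.74 (SE 0.61) and Scgb3a2 at -1.12 (SE 0.91) remained below 0. The second comparison sets females against males, the difference between the subsets was not tested, and the male libraries labelled Glut1-KO are those with Slc2a1 inside the control range.

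**Figure D2:**
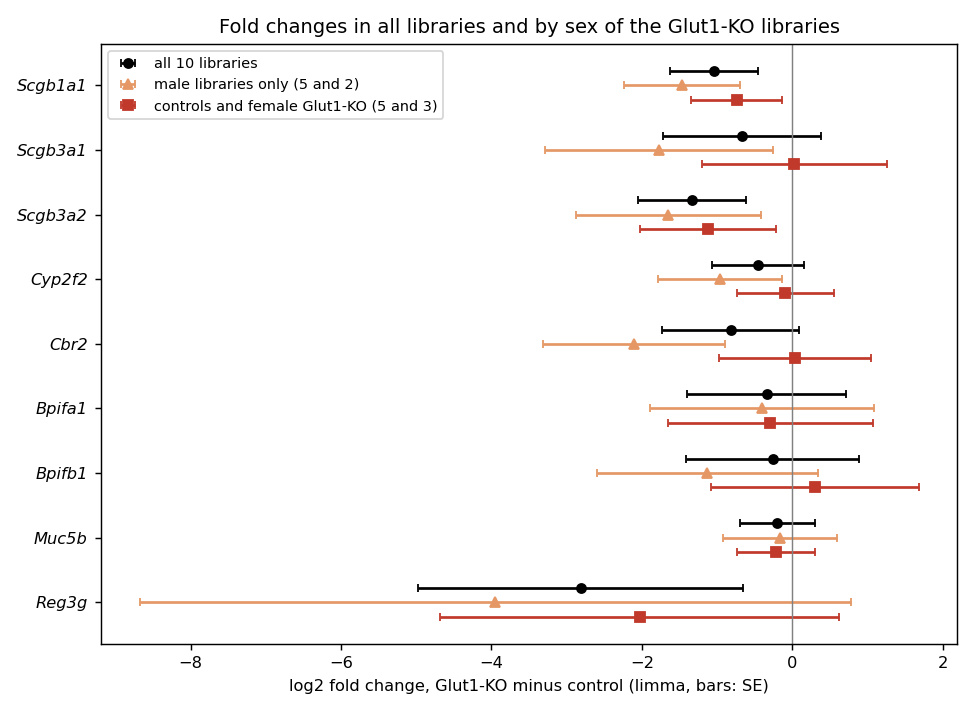
Log2 fold change, Glut1-KO minus control, of the 9 genes (x axis, limma, bars show the SE) in all 10 libraries, in male libraries only and with female Glut1-KO libraries only. In all libraries and in males the 9 estimates lie below 0, and with female libraries Cbr2, Scgb3a1 and Bpifb1 lie at 0.04, 0.03 and 0.30.

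Variation between libraries was large for the whole group. The SD of log2 CPM over 10 libraries was 0.87 for Muc5b, 1.09 for Cyp2f2, 1.14 for Scgb1a1, 1.30 for Scgb3a2, 1.65 for Cbr2, 1.84 for Bpifa1, 1.85 for Scgb3a1, 1.99 for Bpifb1 and 3.59 for Reg3g, where the median over all genes tested was 0.36. Between 85.0% (Muc5b) and 99.9% (Reg3g) of all genes had a smaller SD. Within the controls alone 90.5% of genes had a smaller SD than Scgb1a1, and within libraries labelled Glut1-KO 91.6%, so the spread was present inside either group. The lowest count in a library was 31067 for Scgb1a1, 1526 for Cbr2, 57 for Scgb3a1, 24 for Bpifb1 and 0 for Reg3g.

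**Figure D3:**
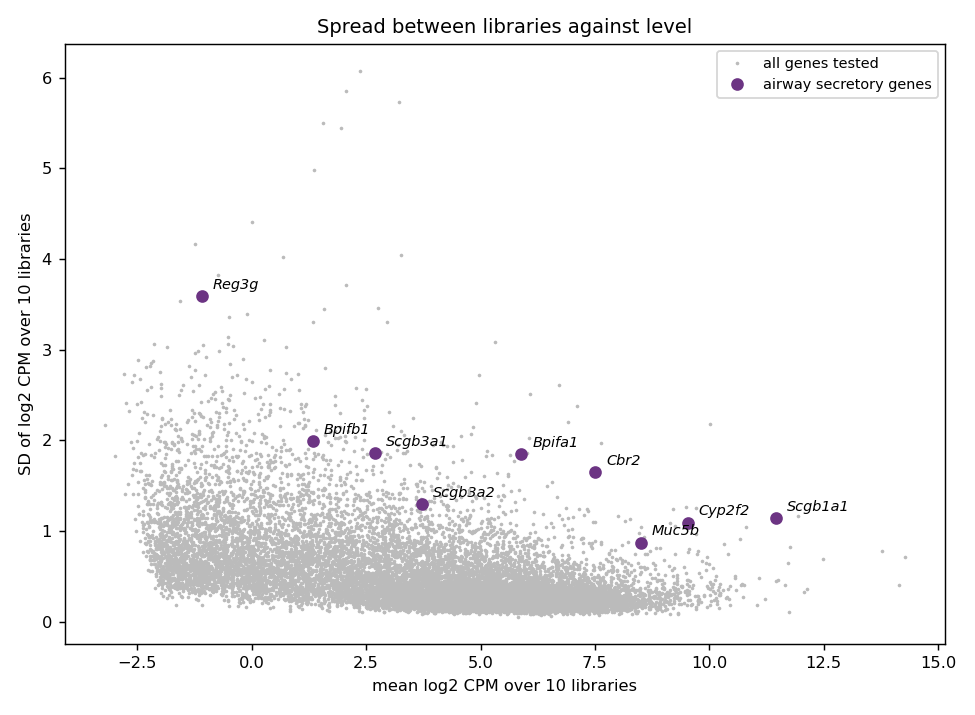
SD of log2 CPM over the 10 libraries (y axis) against mean log2 CPM (x axis) for all 15922 genes tested in grey and for the 9 airway secretory genes in purple. Scgb1a1, with an SD of 1.14, lies above most genes of similar level, and Reg3g, with an SD of 3.59, is near the top.

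The 9 genes did not vary as one block. Over the 10 libraries (log2 CPM, a description with no test), Scgb1a1 and Cyp2f2 had r = 0.80, which was 0.82 without the 2 libraries farthest from the median of Scgb1a1. Cyp2f2 and Cbr2 had r = 0.86, and 0.62 without control replicate 2 and Glut1-KO replicate 5, the lowest libraries for Cyp2f2. Scgb1a1 and Muc5b had r = 0.78, and 0.59 without 2 libraries. A second pair, Scgb3a1 and Bpifb1, had r = 0.90 but 0.25 without control replicate 3 and Glut1-KO replicate 1, so this relation rests on those libraries. Scgb3a1 and Reg3g had r = 0.70, and 0.85 without the same libraries.

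Bpifa1 stood apart from the rest. It had r = 0.13 with Bpifb1, -0.28 with Scgb1a1, -0.07 with Cyp2f2 and -0.63 with Muc5b. Each was computed again without the 2 libraries farthest from the median of 1 gene of the pair, which was Bpifa1 for Bpifb1 and Muc5b (control replicate 1 and Glut1-KO replicate 3), Scgb1a1 for the second pair and Cyp2f2 for the third. The values became -0.29, 0.09, 0.36 and -0.67, so that 3 changed sign and that with Muc5b did not. Control replicate 1 illustrates this, with the highest Scgb1a1 and Muc5b and the lowest Bpifa1 of all libraries. In control replicate 2 Bpifa1 was second highest, while Cbr2 was lowest of all and Cyp2f2 next to lowest. Control replicate 5 had the highest Scgb3a2 and Bpifa1 and no Reg3g count. Glut1-KO replicate 5 was lowest for Scgb1a1, Cyp2f2 and Muc5b.

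**Figure D4:**
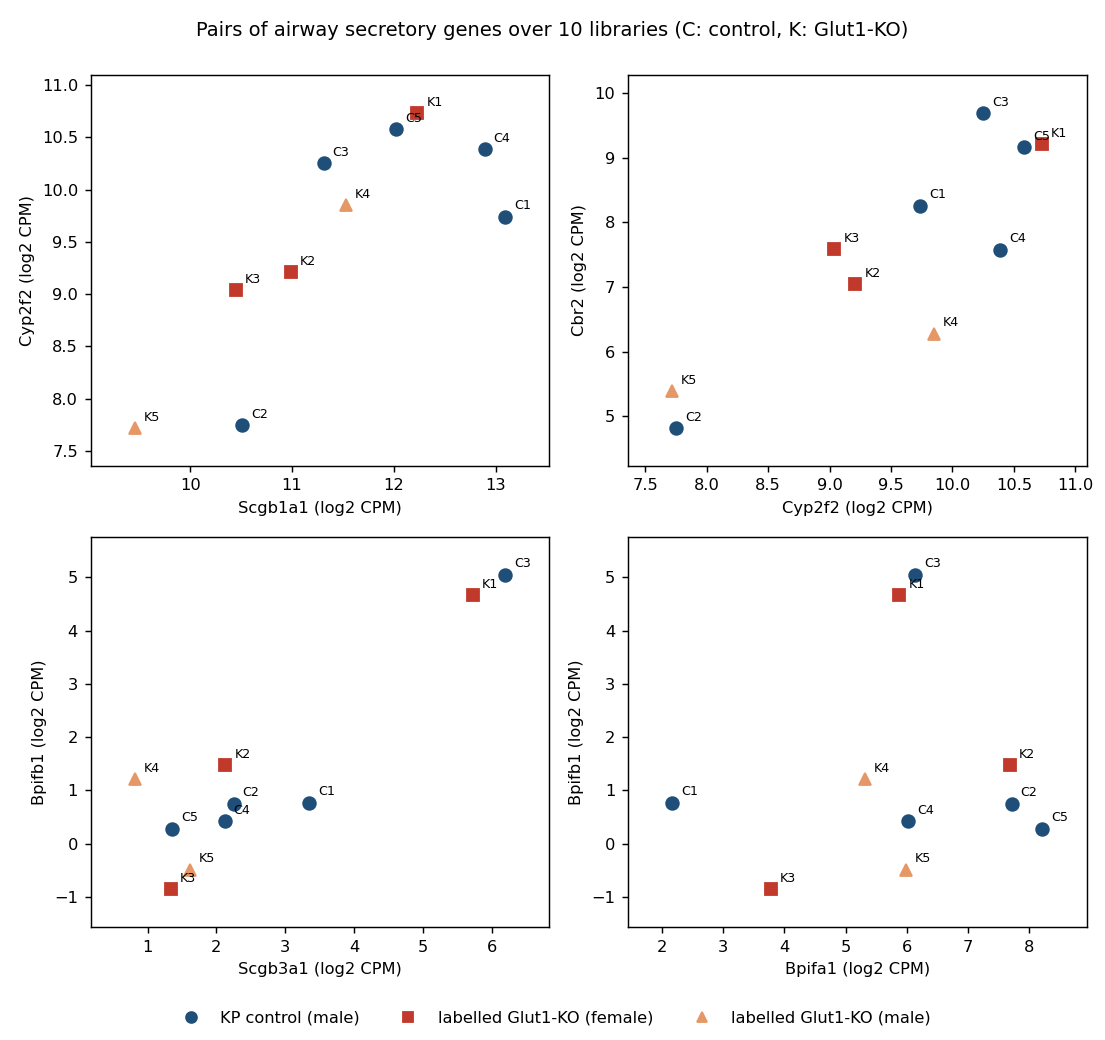
Log2 CPM of 4 pairs of genes over the 10 libraries (C, control; K, labelled Glut1-KO; number, replicate). Scgb1a1 with Cyp2f2 (r = 0.80) and Cyp2f2 with Cbr2 (r = 0.86) spread along a line, Scgb3a1 with Bpifb1 (r = 0.90) has 2 libraries far from the other 8, and Bpifa1 with Bpifb1 (r = 0.13) shows no line.

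Markers of other airway cells moved with part of the group. The summed level of 11 ciliated cell genes, which include Foxj1, the master regulator of motile cilia, was 66.7, 12.9, 108, 44.0 and 305 CPM in control replicates 1 to 5. In Glut1-KO replicates 1 to 5 it was 64.1, 26.6, 30.2, 30.5 and 16.8 CPM. Estimates of all 11 genes were below 0 (median -0.96) and 0 passed the test. The sum had r = 0.88 with Cbr2, 0.84 with Scgb3a2, 0.81 with Cyp2f2 and 0.58 with Scgb1a1, but 0.13 with Muc5b and 0.06 with Bpifa1 (10 libraries, all values from the same libraries). The summed AT2 markers also moved with the enzymes, at r = 0.75 with Cbr2 and 0.73 with Cyp2f2, and the summed alveolar type 1 markers had r = 0.63 with Cbr2, and a difference between these relations was not tested. The part of any of these cells in the levels of these genes was not tested.

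Single libraries also stood out for other markers. Krt5, a keratin of basal cells, was at 346 CPM in control replicate 1, the library with the highest Scgb1a1 and Muc5b, and at or under 0.321 CPM in each other library. The sum of 6 neuroendocrine markers was 20.2 CPM in control replicate 3, the library with the highest Scgb3a1, Bpifb1 and Reg3g, and between 1.34 and 4.49 CPM elsewhere. None of the markers in these lists was at 0 in all libraries, and the part of these cells in the results was not tested.

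Most markers of leukocytes and all those of endothelial cells that were tested had estimates above 0, and a difference from the 9 genes was not tested. Of 9 leukocyte markers tested, 7 had an estimate above 0 (median 0.88) and 4 an unadjusted p under 0.05, where 7.68% of all genes had one, and 0 passed the test. Ptprc, the gene of CD45 and thus of the depletion, was at 2.76 ± 0.451 CPM in controls and 7.92 ± 2.19 CPM in libraries labelled Glut1-KO (mean ± SD of 5), and the groups did not overlap (log2 fold change 1.47, SE 0.25, limma adjusted p = 0.23). No gene had a smaller adjusted p, but the adjustment can give several genes the same value, so Ptprc need not rank first. The groups of Laptm5 and Coro1a, also general leukocyte genes, did not overlap either, where 1.85% of all genes did not in one direction or the other, at 3.73 ± 0.99 against 7.21 ± 2.14 CPM and at 1.11 ± 0.167 against 2.30 ± 0.699 CPM. The sum of the 10 listed leukocyte markers, carried by Lyz1, ranged from 29.7 to 683 CPM in controls and from 94.1 to 947 CPM in libraries labelled Glut1-KO. For endothelial cells, 8 of 8 markers had an estimate above 0 (median 0.67), and the sum ranged from 75.5 to 321 CPM and from 119.8 to 447 CPM. The part of these cells in the levels of the 9 genes was not tested.

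Other genes of the airway secretory programme were read from a list of 65 genes, of which 57 were tested. Among these, 31 estimates were above 0 and 26 below, with a median of 0.12, and 0 passed limma's test while 8 had an unadjusted p under 0.05. Over all genes tested, 7.68% had such a p. The estimates of the list thus lay on both sides of 0. Those of the 9 genes were all below 0 in the main fit. With female Glut1-KO libraries only, 6 of them were below 0 and 3 above. A difference between the list and the 9 genes was not tested. The 6 genes with the smallest unadjusted p are named, all with estimates below 0. Cyp2b10, a drug-inducible cytochrome P450, was at 58.2, 43.5, 19.0, 49.3 and 35.2 CPM in control replicates 1 to 5 and at 24.1, 6.75, 2.27, 16.8 and 2.56 CPM in Glut1-KO replicates 1 to 5 (log2 fold change -2.53, SE 0.60, limma adjusted p = 0.351). Only control replicate 3 lay inside the range of the libraries labelled Glut1-KO. Cyp4b1, another lung P450, was at 22.3 ± 8.96 CPM in controls and 9.74 ± 8.97 CPM in libraries labelled Glut1-KO (SD, n = 5), with a limma adjusted p of 0.593.

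Hes1, a transcription factor downstream of Notch, the pathway that keeps airway cells secretory, was at 113, 82.3, 100, 86.1 and 89.5 CPM in control replicates 1 to 5. In Glut1-KO replicates 1 to 5 it was at 68.2, 54.8, 70.2, 72.9 and 65.9 CPM. Its groups did not overlap, which held for 1.06% of all genes in this direction, and the log2 fold change was -0.50 (SE 0.12, limma adjusted p = 0.36). Krt15, a keratin of basal cells, was at 10.5, 1.99, 1.19, 2.87 and 2.24 CPM in control replicates 1 to 5 and between 0.516 and 1.26 CPM in libraries labelled Glut1-KO (limma adjusted p = 0.449). The highest value was in control replicate 1, the library with Krt5 at 346 CPM. Tff3, a trefoil peptide secreted with mucins, reached 70.8 CPM in control replicate 5 and 14.1 CPM in control replicate 4, and was at or under 2.19 CPM in the other 8 libraries (limma adjusted p = 0.587). Spdef, a goblet cell transcription factor, was at 2.94 ± 1.26 and 1.57 ± 0.784 CPM (limma adjusted p = 0.616).

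DESeq2 called 4 genes of this list lower in libraries labelled Glut1-KO, where it called 1.35% of all genes in either direction. They were Ltf (log2 fold change -3.09, DESeq2 adjusted p = 0.00639), Tff3 (-6.87, adjusted p = 0.00982), Krt15 (-2.26, adjusted p = 0.0124) and Hes1 (-0.50, adjusted p = 0.0143). Ltf, which encodes the iron-binding lactoferrin of airway fluid, is named here for that call. It was at 10409.9, 3372, 1529, 8337 and 176 CPM in control replicates 1 to 5 and at 539.7, 624, 521, 981 and 110.4 CPM in Glut1-KO replicates 1 to 5, so that 4 controls were above every library labelled Glut1-KO and control replicate 5 was within their range. With limma its adjusted p was 0.616.

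Transcription factors of lung epithelium and other secreted proteins on the list are given for comparison, chosen after their values were seen, and none passed the test. Foxa1, a forkhead factor, was at 97.6 ± 20.2 CPM in controls and 90.3 ± 12.5 CPM in libraries labelled Glut1-KO, and Foxa2 at 79.0 ± 9.82 and 75.5 ± 8.56 CPM. Cebpa, a factor of airway and alveolar differentiation, was at 315 ± 39.2 and 390.4 ± 53.6 CPM, and its estimate lay above 0 (log2 fold change 0.31, limma unadjusted p = 0.0328, adjusted p = 0.616, exact permutation p = 0.0317). Nkx2-1, the lung lineage factor, was at 187 ± 40.6 and 235 ± 32.1 CPM (log2 fold change 0.35, limma adjusted p = 0.667). Muc5ac, the mucin of goblet cells, was at 39.8 ± 31.0 and 38.8 ± 19.6 CPM, and Lcn2, an antibacterial lipocalin, at 817 ± 389 and 829 ± 271 CPM (SD, n = 5 each).

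**Figure D5:**
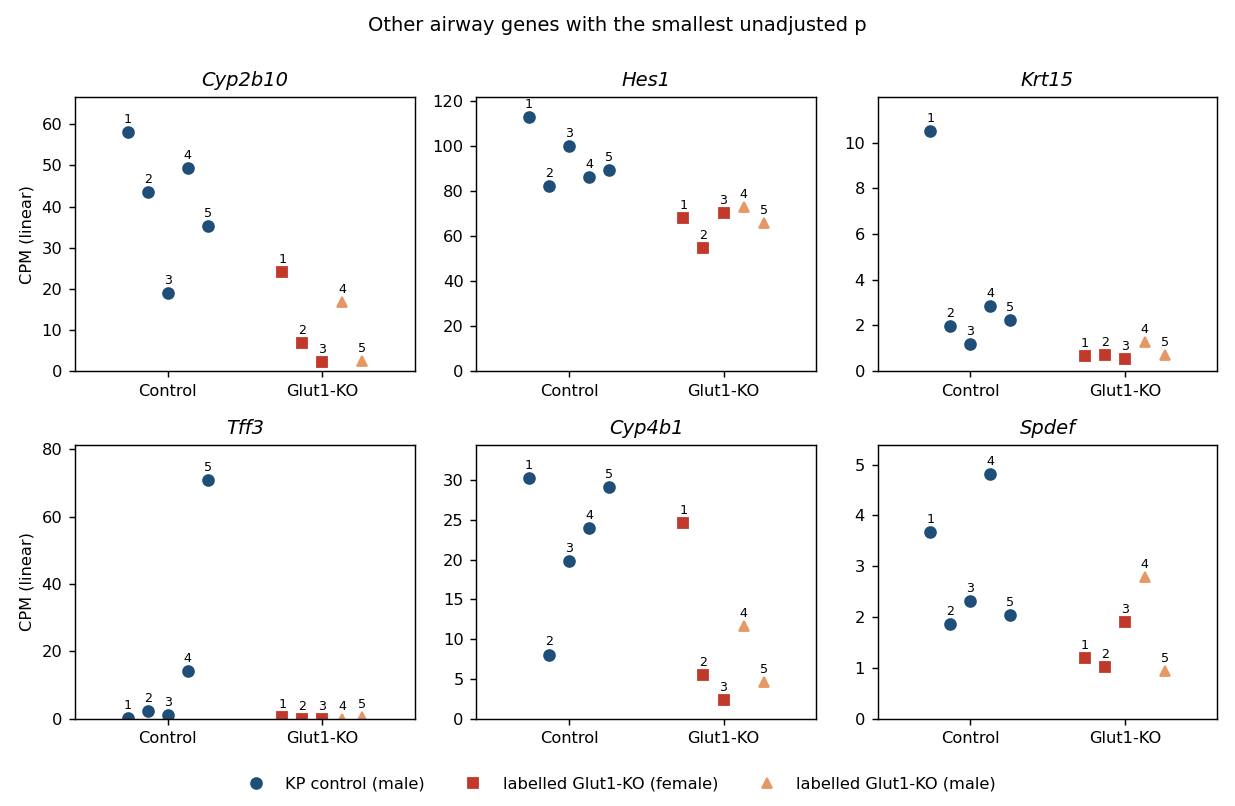
CPM (linear y axis from 0) in each library of the 6 other airway genes with the smallest unadjusted limma p, with controls on the left and libraries labelled Glut1-KO on the right, and numbers giving the replicate. Hes1 is the one whose groups do not overlap, and Tff3 is highest in control replicates 4 and 5, at 14.1 and 70.8 CPM.

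The genes most like each member were sought among the genes tested that are not members, by Pearson's r of log2 CPM over the 10 libraries. For Scgb1a1 they were Mapk8 (r = 0.952), Pof1b (0.928) and Gpr137b-ps (0.921). Cyp2f2 was followed most closely by Gm5431 (0.937), Fam110b (0.937) and Gm3362 (0.933), and Cbr2 by Osbpl5 (0.96), Adora3 (0.957) and Gm11992 (0.956). For Scgb3a2 they were Fam103a1 (0.953), Sptbn5 (0.945) and Prr18 (0.93). Closest to Bpifa1 were Osgin2 (0.919), Otoa (0.911) and 1700024P16Rik (0.906), to Muc5b Krt84 (0.953), Adam28 (0.947) and Oas3 (0.938), and to Reg3g Smtn (0.91), Ambp (0.906) and Vezt (0.9).

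Ltbp4, which encodes a binding protein of latent TGF-beta, came first for both Scgb3a1 (r = 0.967) and Bpifb1 (r = 0.908). It was at 29.4, 15.9, 103, 18.3 and 17.1 CPM in control replicates 1 to 5 and at 55.3, 22.6, 10.8, 12 and 16.2 CPM in Glut1-KO replicates 1 to 5. Like both members it was highest in control replicate 3 and next in Glut1-KO replicate 1. After it, outside the 9 genes, came M1ap (0.883) and Stk10 (0.878) for Scgb3a1, and Tmeff1 (0.892) and Lrrc32 (0.865) for Bpifb1. The number of genes with r of at least 0.9 ranged from 1 for Scgb3a1 and Bpifb1 to 69 for Cbr2. With 10 libraries and 15922 genes, high r values arise between unrelated genes, so these names are a description only.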

How the data were processed

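Libraries were assigned to groups from their group labels. The submitters' processing notes name bcl2fastq 2.17, cutadapt 1.4.2, HISAT2 on mm10, featureCounts 1.4.4 and edgeR, and the annotation release is not given in the sources used here. The authors deposited raw read counts per Ensembl gene from stranded mRNA libraries, and the 10 single tables equalled the columns of the combined one. A deposited table of log2 values was not used. Gene positions and exon lengths came from GENCODE M21 (GRCm38), which held 96.6% of the genes, and promoter sequences from RefSeq (GRCm38.p6).

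Genes were kept by filterByExpr (minimum count 10, minimum total 15; 15922 genes), scaled by TMM (edgeR 4.0.16), transformed with voom (offset 0.5) and fitted with limma 3.58.1 in R 4.3.3 with the group as the only term, adjusted over all genes tested at a threshold of 0.05. The code was tested on simulated data. Alternatives were DESeq2 1.42.0, edgeR's quasi-likelihood test, other scalings and filters, sample weights, sex as a term or by subset, blocks, and leaving out each library. Exact permutation tests were 2-sided over all assignments to 5 and 5 (smallest p 0.00794). Nothing states that libraries came from separate animals, so p-values measure the spread between these libraries. Differences between libraries of a group exceeded sampling noise (chi-square per degree of freedom 91.1 to 395). The members and lists were chosen with earlier results of these data known. Named were all 9 members, of the other airway genes the 6 with the smallest unadjusted p, the 3 genes most like each member, and Slc2a1. Other genes of the airway list and all genes of the marker lists that the text names were chosen after their values were seen. Of 152 listed marker and airway symbols, 148 matched by symbol and 3 by the identifier of a newer symbol.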

Additional observations from a re-analysis of the deposited data

Results flagged for a closer look

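In groups of 5 libraries, the library farthest from the others was compared with the range of its group, and 8 of the 18 groups checked (9 genes in 2 groups) held a library whose gap to its nearest neighbour exceeded 0.71 of the range, Dixon's 95% critical value. For values with a normal spread chance gives about 1 in 20, or 0.9 of 18, but CPM are skewed upwards, each of these libraries was the highest of its group, and genes that vary together are not independent groups. On log2 CPM, a check added after seeing the data, 3 of 18 exceeded it, namely Bpifb1 in controls (0.9) and Scgb3a1 (0.73) and Scgb3a2 (0.83) in libraries labelled Glut1-KO. Control replicate 3 stood apart for Scgb3a1 at 72.8 CPM (the other controls 2.56 to 10.1), for Bpifb1 at 33.1 CPM (1.21 to 1.70) and for Reg3g at 38.1 CPM (0 to 8.93). Glut1-KO replicate 1 stood apart for Scgb3a1 at 52.9 CPM (the others of its group 1.75 to 4.37), for Bpifb1 at 25.4 CPM (0.539 to 2.78), for Scgb3a2 at 18.9 CPM (6.2 to 7.5) and for Cbr2 at 593 CPM (42.0 to 192). Glut1-KO replicate 2 stood apart for Bpifa1 at 205 CPM (13.7 to 63.7).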

How the results depend on the processing

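No setting of limma, edgeR or DESeq2 put any of the 9 genes past the threshold of adjusted p, where DESeq2 gave no adjusted p for Scgb3a1 and Bpifb1. The number of all genes past it was 0 with limma and became 215 with DESeq2, 3 with sex as a covariate, 1 with male libraries only, 9 with female Glut1-KO libraries only and 0 to 1 when single libraries were left out (1 without control replicate 3), and for the other airway genes it became 4 with DESeq2. The causes were not tested. Log2 fold changes changed sign for Bpifb1 with sample quality weights (0.41) and, with female Glut1-KO libraries only, for Scgb3a1 (0.03), Cbr2 (0.04) and Bpifb1 (0.30). Leaving out 1 library at a time gave log2 fold changes from -1.38 to -0.66 for Scgb1a1, -1.52 to 0.08 for Scgb3a1, -1.70 to -0.80 for Scgb3a2, -0.92 to -0.04 for Cyp2f2, -1.57 to -0.37 for Cbr2, -1.29 to 0.18 for Bpifa1, -1.13 to 0.62 for Bpifb1, -0.48 to 0.09 for Muc5b and -4.45 to -1.61 for Reg3g, with a median of the 9 from -1.34 to -0.32. The exact permutation p then ran from 0.0714 to 0.325 for Scgb1a1, 0.143 to 0.968 for Scgb3a1, 0.0317 to 0.198 for Scgb3a2, 0.143 to 0.968 for Cyp2f2, 0.119 to 0.778 for Cbr2, 0.127 to 0.984 for Bpifa1, 0.429 to 0.881 for Bpifb1, 0.429 to 0.992 for Muc5b and 0.00794 to 0.421 for Reg3g, under 0.05 for Scgb3a2 without control replicate 4 and for Reg3g without control replicate 5.

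Samples share replicate numbers across groups, but deviations of same-numbered libraries correlated at 0.04, -0.09, 0.03, 0.2 and -0.13. These low values over all genes cannot decide whether the numbers mark pairs, and the main fit used none. With a replicate block, 0 of the 9 genes passed, the median was -0.64 and the smallest limma adjusted p 0.557. Unadjusted limma p for Scgb1a1, Scgb3a2 and Reg3g was then 0.0334, 0.0145 and 0.0143, against 0.103, 0.0909 and 0.219 in the main fit. For the other members it was at or above 0.228 with this block. With the name number as a random block (consensus correlation 0.0703) the median was -0.67 and the smallest adjusted p 0.802. Depth set a floor for Reg3g, whose count was 0 in 2 libraries.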
